A study of Homo sapiens with 24 samples.

Results

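Peaks of tagged KRAB zinc finger proteins (KZFPs) that fell in coding exons, away from promoters, were collected over 21 KZFP libraries. A peak was taken when its score was above 80, when its midpoint lay in a coding exon of a protein-coding gene, and when that midpoint was more than 2500 bp from every protein-coding transcript start. Zinc finger genes (symbols that begin with ZNF, ZFP, ZSCAN or ZKSCAN and a digit) were left out, which removed 12 peaks. Of 31717 KZFP peaks above 80, 128 met this rule, or 0.404%. They lay in 126 separate regions of 125 genes on 20 chromosomes and came from 11 KZFPs. A further 245 peaks had a coding midpoint but lay within 2500 bp of a start and were not taken.

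Each library came from HEK293T cells, a human embryonic kidney line, transduced to express 1 HA-tagged KZFP under doxycycline (1 µg/mL) after puromycin selection, and the protein was pulled down with an antibody against HA. The assay was ChIP-exo, a form of ChIP that digests precipitated DNA up to the crosslinked protein, for 15 KZFPs (ZFP28, ZKSCAN4, ZKSCAN7, ZNF34, ZNF160, ZNF195, ZNF251, ZNF416, ZNF446, ZNF546, ZNF578, ZNF724P, ZNF729, ZNF763 and ZNF850) and ChIP-seq for 6 (ZKSCAN8, ZNF20, ZNF213, ZNF256, ZNF597 and ZNF746) and for the 293Tctrl library. There was 1 library per KZFP and no replicate, the proteins were overexpressed in a single cell line, and the assay cannot be told apart from the KZFPs it was used for. The score is the −10 log10 p of MACS, which grows with the depth of a library, so scores were ranked only within a library.

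KZFPs carry an N-terminal KRAB domain, through which many of them recruit the corepressor KAP1, and an array of C2H2 zinc fingers that reads DNA sequence. Many bind sequences derived from transposable elements, which are rare in coding exons because an insertion there disrupts the protein. A coding exon is read for its codons, so a binding site inside one shares its bases with the protein sequence. The comparison across KZFPs asks how often, and with what sequence, each protein was found at such exons.

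The sequences that resembled each KZFP's other peaks are shown first. For each library, a pattern of 26 positions was learned from peaks without any coding base and scored in the 200 bp around every midpoint. The upper limit was the score that 1% of 179477 windows of eligible coding exons reach. The score sums log ratios of letter frequencies in the pattern to those of the background. Where the sum is negative, the bases fit the background better than the pattern, and a limit can itself be negative. For ZFP28 the commonest letters of the pattern were GACNCAAGAAGAAATAGAAAANCTNA. MIEF1 and TTN passed the upper limit, and HSPH1 and ARHGAP27 passed the lower limit that 5% of coding windows reach. The hg19 bases read in the direction of the pattern are given with the 26 matched positions in capitals.
MIEF1 (ZFP28, chr22:39910233-39910292, +): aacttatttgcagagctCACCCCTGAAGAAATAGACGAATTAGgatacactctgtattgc
TTN (ZFP28, chr2:179393117-179393176, +): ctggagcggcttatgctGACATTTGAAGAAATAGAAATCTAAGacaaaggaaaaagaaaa
HSPH1 (ZFP28, chr13:31717923-31717982, -): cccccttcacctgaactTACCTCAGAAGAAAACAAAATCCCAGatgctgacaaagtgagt
ARHGAP27 (ZFP28, chr17:43474337-43474396, -): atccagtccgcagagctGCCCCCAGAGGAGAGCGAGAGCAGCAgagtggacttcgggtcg
The GAAGAAATAGA run of the pattern was whole in MIEF1 and TTN, which each matched 16 of the 23 defined letters. All 26 positions were coding in MIEF1, HSPH1 and ARHGAP27, where the pattern read in the direction of the gene. In TTN 21 of 26 were coding and the pattern read against the gene.

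The ZNF251 pattern had GACANNNTGCTAAGTGAAANAAGCCA as its commonest letters. The sites below passed the upper limit, matched 13 to 16 of the 22 defined letters and include the highest-scoring ZNF251 peak of the set. Sites past this limit that are not printed include closer matches in RAD9B and PGPEP1L (20 letters each) and CCDC40 (18), and the loosest, with 11.
ABCB11 (ZNF251, chr2:169850312-169850371, +): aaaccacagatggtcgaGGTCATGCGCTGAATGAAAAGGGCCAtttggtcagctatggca
RSPRY1 (ZNF251, chr16:57250026-57250085, -): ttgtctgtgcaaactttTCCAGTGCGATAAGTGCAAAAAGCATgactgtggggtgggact
TIGAR (ZNF251, chr12:4460434-4460493, +): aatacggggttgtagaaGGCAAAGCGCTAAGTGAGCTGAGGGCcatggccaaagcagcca
CYP1A1 (ZNF251, chr15:75013009-75013068, -): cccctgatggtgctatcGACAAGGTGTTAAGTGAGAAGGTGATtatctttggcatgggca
OSBPL8 (ZNF251, chr12:76844677-76844736, -): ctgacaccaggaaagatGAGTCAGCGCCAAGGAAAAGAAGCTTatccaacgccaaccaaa
LPA (ZNF251, chr6:161016429-161016488, -): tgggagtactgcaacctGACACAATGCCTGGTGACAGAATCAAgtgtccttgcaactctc
SPTBN1 (ZNF251, chr2:54876093-54876152, -): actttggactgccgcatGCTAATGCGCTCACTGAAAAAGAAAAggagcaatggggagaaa
ABCB11 matched 14 of 22 defined letters, and 0.0462% of coding windows scored as high or higher. SPTBN1, whose peak had the highest score among the ZNF251 coding exon peaks, matched 13 of 22, and 13 of its 26 positions were coding. For SPTBN1, 0.942% of coding windows equalled or exceeded the score.

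Not every short peak held a pattern site. Both peaks printed next are shown whole, on the strand of the gene and with coding bases in capitals, because they covered an exon and little else.
VIM (ZKSCAN7, chr10:17276691-17276839, +): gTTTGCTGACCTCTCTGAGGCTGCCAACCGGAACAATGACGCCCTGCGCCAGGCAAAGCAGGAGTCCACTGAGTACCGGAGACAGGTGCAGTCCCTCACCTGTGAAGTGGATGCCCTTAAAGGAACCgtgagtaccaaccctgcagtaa
FN1 (ZNF763, chr2:216269111-216269303, -): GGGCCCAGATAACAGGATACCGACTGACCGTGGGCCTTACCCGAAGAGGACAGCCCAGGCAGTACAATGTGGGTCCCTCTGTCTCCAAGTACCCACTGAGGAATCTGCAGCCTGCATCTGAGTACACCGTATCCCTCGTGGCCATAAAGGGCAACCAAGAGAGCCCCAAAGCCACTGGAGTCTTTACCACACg
The VIM peak of 149 bp began 1 bp before exon 6 and took in all 126 bp of that exon. The FN1 peak of 193 bp was coding over 99.5% of its length and ran 1 bp past the border of a coding exon of 267 bp.

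Coding exon shares differed between KZFPs. ZNF763 had 11 coding exon peaks among 224 (4.91%, 95% exact binomial interval 2.48 to 8.62), ZNF195 had 3 of 110 (2.73%, 0.566 to 7.76) and ZKSCAN7 had 6 of 337 (1.78%, 0.656 to 3.83). Single peaks gave ZNF34 1.28% of 78 and ZNF20 1.1% of 91. ZNF578 had 7 of 854 (0.82%, 0.330 to 1.68) and ZFP28 had 7 of 1098 (0.638%, 0.257 to 1.31). At the low end were ZNF850 with 2 of 464 (0.431%), ZNF251 with 86 of 20974 (0.41%, 0.328 to 0.506), ZNF724P with 1 of 505 (0.198%) and ZNF160 with 3 of 6377 (0.047%, 0.00970 to 0.137). These intervals cover counting error only. Bases that meet the same rule made up 0.853% of the assembled genome. The interval of ZNF763 lay above this share, those of ZNF251 and ZNF160 lay below it, and those of all other libraries with at least 20 peaks included it.

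**Figure D1:**
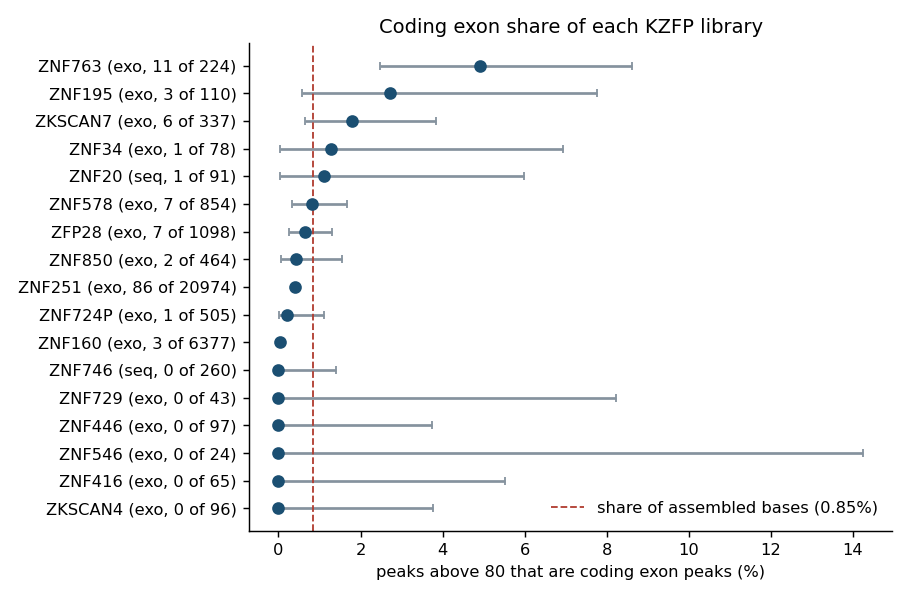
Share of peaks above 80 that were coding exon peaks (x axis, percent) in each of the 17 KZFP libraries with at least 20 peaks, named with the assay and counts; bars are 95% exact binomial intervals and the dashed line is the share of assembled bases (0.853%). ZNF763 lies to the right of the line, and ZNF251 and ZNF160 lie to its left with their whole interval.

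In 6 of these 17 libraries no coding exon peak was found. ZNF746 had 0 of 260, which allows up to 1.41%, and ZNF446 had 0 of 97, ZKSCAN4 0 of 96, ZNF416 0 of 65, ZNF729 0 of 43 and ZNF546 0 of 24, which allow up to 3.73%, 3.77%, 5.52%, 8.22% and 14.2%, so that a share like that of the genome was not excluded in any of them. The 293Tctrl library had 4 peaks above 80 and none in a coding exon. Over the 17 libraries the share minus the genome share averaged −0.00893 percentage points (SD 1.3, n = 17), with 5 libraries above and 12 below it (two-sided sign-flip permutation test, p = 0.984, adjusted p = 0.984 over 6 tests). No difference common to the KZFPs was seen. The mean rested on ZNF763, without which it was −0.263 percentage points (adjusted p = 0.5625 by the same permutation test).

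ZNF251 contributed 67.2% of the coding exon peaks and 66.1% of all KZFP peaks above 80. Its 86 peaks lay in 86 genes and had scores from 80.04 to 1468.01 (median 161.795). The highest lay in coding exon 24 of 35 of SPTBN1, which encodes a spectrin of the membrane skeleton (chr2:54875886-54876502, 617 bp, score 1468.01, rank 523 of the library). CCDC102A, a coiled-coil gene, had a score of 1306.38 in its first coding exon (chr16:57562400-57563124). RNF217, a ubiquitin ligase gene, had 1207.5 in coding exon 3 of 6 (chr6:125378791-125379503). TCHH, which encodes trichohyalin of the hair follicle, held the widest peak, 2103 bp, all of it inside a coding exon of 5691 bp (score 1136.35, chr1:152081441-152083543).

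The next ZNF251 peaks were in SRRM4, a regulator of neural splicing (score 1085.07), RAD9B, a relative of the checkpoint gene RAD9A (915.65), RXRA, the retinoid X receptor alpha (915.37), BICDL2 (886.60) and CYP1A1, a cytochrome P450 that oxidises aromatic hydrocarbons (885.03). SDHAF3, an assembly factor of succinate dehydrogenase, had 779.92. AJM1 had 739.20, UBXN4 692.64, KLHL31 539.38, IL4I1, an amino acid oxidase, 516.19 and LPA, which encodes apolipoprotein(a), 494.12. Of these 15 strongest peaks, 9 lay in the last coding exon. Among all 86 ZNF251 peaks 24 did (27.9%, 18.8 to 38.6), but RAD9B, CCDC40 and ARHGAP25 among them were counted in transcripts that are not canonical. Over all libraries, 31 of 122 peaks coding in the canonical transcript did (25.4%, 18.0 to 34.1). That interval includes the 18.3% of eligible canonical coding bases in last coding exons. The 9 include AJM1, which has a single coding exon, and RAD9B, counted in a transcript that is not the canonical one. Whether strong peaks differ in this was not tested. Of the 15, 3 (TCHH, AJM1 and IL4I1) were coding throughout, beside 11 of the 86. The GC content of the 15, flanking intron included, ranged from 31.4% to 76.0%.

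**Figure D2:**
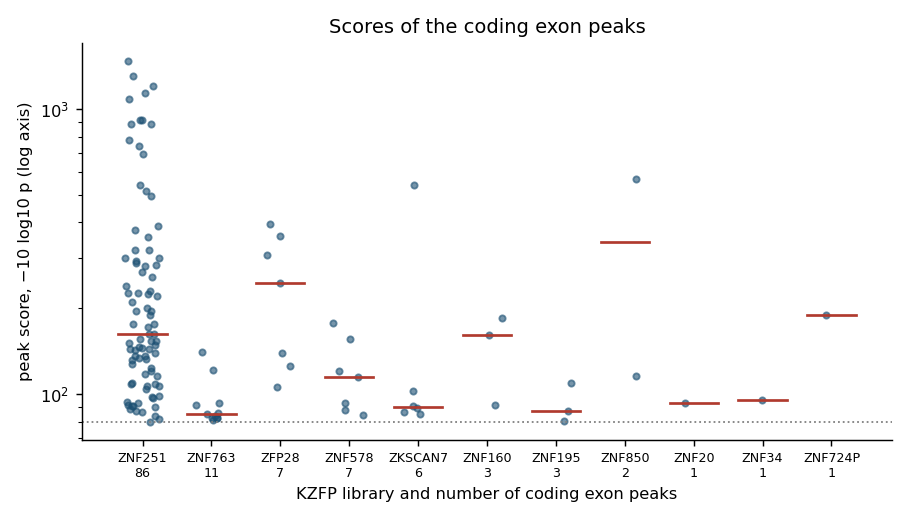
MACS score (−10 log10 p, log axis) of each of the 128 coding exon peaks by KZFP library, with the number of peaks under each name; points are single peaks, red bars are library medians and the dotted line is the score of 80. ZNF251 spans 80.04 to 1468.01, while the 11 ZNF763 peaks span 81.34 to 140.75.

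The ZNF251 pattern was held by fewer of its coding exon peaks than of its other peaks. It passed the upper limit in 16 of 86 coding exon peaks (18.6%, 11.0 to 28.4) and in 10852 of 19507 peaks without coding bases that had not been used for learning (55.6%, 54.9 to 56.3), against 1% of coding windows by construction. At the lower limit the shares were 34 of 86 (39.5%, 29.2 to 50.7) and 64.6%. That limit was negative (−1.50), and some of the 34 had negative scores, among them EXPH5 (−1.27) and APOL5 (−1.07). Their bases fitted the background better than the pattern. The best match lay 2 to 84 bp from the midpoint at the upper limit (median 35 bp). Only the 200 bp around the midpoint were searched, which bounds this distance, and whether sites were centred was not tested. All 26 positions were coding in 11 of the 16 sites. The pattern read in the direction of the gene in 8 of these 11 and in 9 of all 16. The exact word GCTAAGTGAA was chosen as the one most enriched at the centre of the top 500 peaks without coding bases, so its share of 29% there is fixed by the choice. It was in 0 of 86 coding exon peaks, which allows a share of up to 4.20%, and in 0.0206% of coding windows.

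The peaks with a site had a median score of 230 and the others one of 152, although SPTBN1, RAD9B, CYP1A1 and LPA were the only 4 of the 15 strongest that passed the upper limit. CCDC102A, TCHH, SRRM4, RXRA and BICDL2 were among the strongest peaks and did not pass the lower limit either. In PGPEP1L the site had 20 of 22 letters but no coding base, since only 3.72% of that peak was coding. RAD9B and PGPEP1L also had 347 and 2923 copies elsewhere in hg19 (at least 100 bp at 80% identity or more), whereas 70 of the 86 ZNF251 peaks had none. Copies of the other ZNF251 peaks were not counted.

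ZFP28 had 7 coding exon peaks, 1 gene each. Scores were 396.06 in ARHGAP27, a GTPase-activating protein gene (coding exon 11 of 17, chr17:43473979-43474665) and 306.81 in ALDH1L2, a mitochondrial folate enzyme gene (coding exon 8 of 23, chr12:105455239-105455687). VWF, the von Willebrand factor, had 245.28, HSPH1, a heat shock protein, 139.41, MIEF1, a factor of mitochondrial fission, 125.10, and TTN, the giant sarcomere protein titin, 105.62. The pattern passed the upper limit in 3 of the 7 (42.9%, 9.90 to 81.6) and the lower limit in 5 (71.4%, 29.0 to 96.3), beside 65.2% and 76.8% of 574 other ZFP28 peaks, so the intervals overlapped. The 3 peaks past the upper limit were not the strongest: their median score was 125 and that of the other 4 was 276. None of the 7 had a copy elsewhere in the genome, and copies of the other ZFP28 peaks were not counted.

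**Figure D3:**
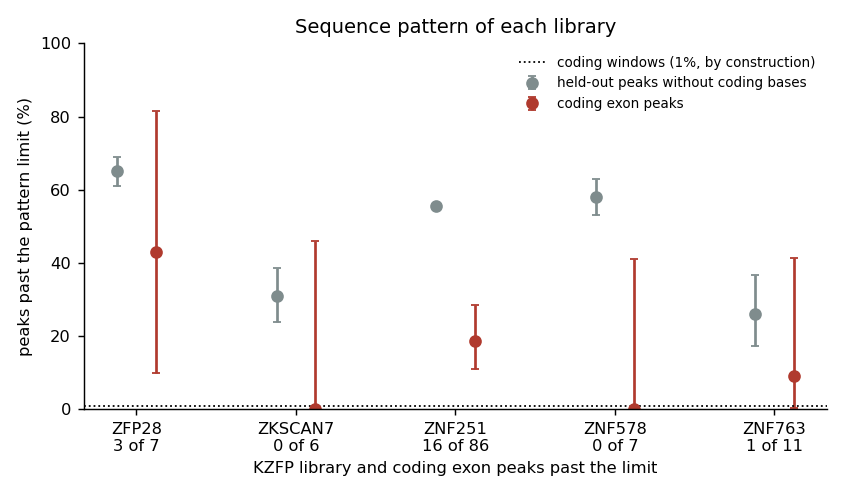
Percent of peaks past the upper limit of the sequence pattern (y axis) in the 5 libraries with at least 5 coding exon peaks, for held-out peaks without coding bases (grey) and coding exon peaks (red), with 95% exact binomial intervals. For ZNF251 the intervals are apart (18.6% and 55.6%), as they are for ZNF578 (0 of 7, up to 41.0%, against 53.1 to 62.8). For ZFP28, ZKSCAN7 and ZNF763 they overlap, and ZKSCAN7 also has 0 coding exon peaks past the limit. The intervals cover counting error only.

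The ZNF578 pattern passed the upper limit in 58.0% of 417 held-out peaks (53.1 to 62.8) and in 0 of 7 coding exon peaks, which allows up to 41.0%. At the lower limit 1 of 7 passed (14.3%, 0.361 to 57.9), in FAM135A, beside 60.7% of held-out peaks. Both limits of this pattern were negative (−7.65 and −14.1), and FAM135A scored −13.3. Its best match thus fitted the background better than the pattern, and passing only ranks it among coding windows. The coding exon peaks lay in CENPF, a kinetochore protein gene (177.86, chr1:214810954-214811497), RAB39A, a small GTPase gene (155.83, chr11:107832623-107833146), and KCNJ2, an inward rectifier potassium channel gene (120.67, chr17:68172148-68172486), and had scores from 84.38 to 177.86 in all. KCNJ2 has a single coding exon, of 1281 bp, and 92.6% of its peak was coding. The other 4 were in FAM135A, ATF2, LARP1B and ABCF1.

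Only VIM had coding exon peaks from 2 KZFPs. VIM encodes vimentin, the intermediate filament protein of mesenchymal cells. ZKSCAN7 had scores of 102.55 (chr10:17275545-17276085, exons 4 and 5) and 90.84 (chr10:17276691-17276839, exon 6), and ZNF763 had 85.83 (chr10:17275588-17276126) and 140.75 (chr10:17276560-17276865) at the same exons. At 80 or below, both lists went on with a peak at exon 7 (54.52 and 79.44), and ZNF763 had another at exon 9 (61.43). Both also had a peak above 80 at the last exon, exon 10 (135.5 and 228.47), whose midpoint was not coding. Every one of these 9 peaks overlapped an exon, and the ZKSCAN7 peak at exon 6 followed its borders closely. Whether this signal came from genomic DNA or from spliced copies of the transcript was not tested. Without their VIM coding exon peaks, ZNF763 had 9 of 222 (4.05%, 1.87 to 7.56) and ZKSCAN7 4 of 335 (1.19%, 0.326 to 3.03). ZNF251 had 2 peaks in the same gene, one across exon 3 (120.58) and one inside the intron that follows it (1919.92), and no other library had a deposited peak there, 293Tctrl included.

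**Figure D4:**
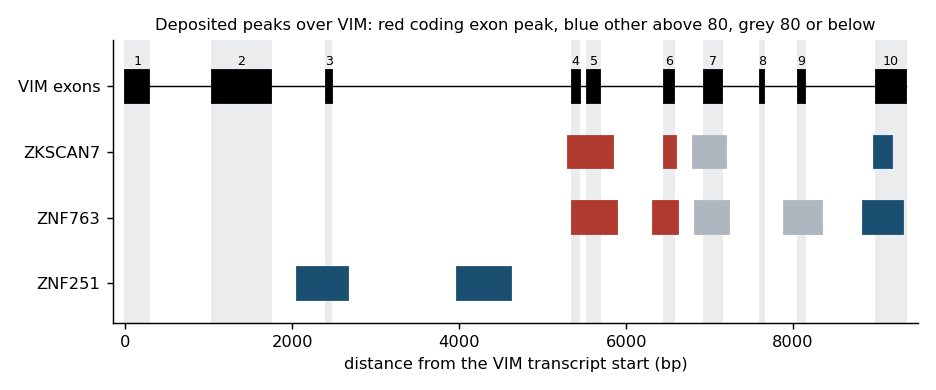
Deposited peaks over VIM by distance from the transcript start (x axis, bp); black boxes and grey bands are exons 1 to 10, red boxes are coding exon peaks, blue boxes are other peaks above 80 and pale boxes are peaks at 80 or below. The 4 ZKSCAN7 and 5 ZNF763 peaks sit over exons 4 to 10, and the 2 ZNF251 peaks lie closer to the start.

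Among the other ZKSCAN7 peaks, RPS9, a protein of the small ribosomal subunit, had the highest score (540.19, rank 49, chr19:54711081-54711463) and had 2 copies of at least 95% identity elsewhere, so its reads could have come from more than 1 locus. CDC27, a subunit of the anaphase-promoting complex, had 89.45 and FSCN2 had 86.44. ZKSCAN7 peaks outside coding exons led to a pattern of repeated A. None of the 6 passed either limit, which allows up to 45.9%, beside 30.8% (upper) and 40.3% (lower) of 159 held-out peaks, so the intervals overlapped. For ZNF763, EPPK1, the epithelial linker epiplakin, had 121.01, FN1, fibronectin, 93.05 (chr2:216269111-216269303), and PKLR, a pyruvate kinase, 91.82. CNTNAP3, NXPH4, CHST13, ZFYVE26, RASA4B and CELSR3 followed from 85.34 down to 81.34. All but VIM exon 6 and EPPK1 were below 100, close to the limit of 80. The GC-rich pattern of ZNF763 passed the upper limit in 1 of 11, CHST13 (9.09%, 0.230 to 41.3), beside 26.1% of 88 held-out peaks. At the lower limit it passed in 4 of 11 (36.4%, 10.9 to 69.2), beside 45.5%.

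The remaining 11 peaks were spread over 6 KZFPs. ZNF160 had WDR87 (185.19, 31 copies elsewhere), CCDC158 (160.57) and ASCC3, a helicase subunit (91.10). ZNF195 had BCL2L12 (109.16), ADGB (86.97) and EGLN1, an oxygen-sensing prolyl hydroxylase (80.54, with 1 copy of at least 95% identity). ZNF850 had ATP5MF, a subunit of the mitochondrial ATP synthase (565.81, rank 10 of its library, 6 copies), and SCAP, the escort protein of SREBP (115.67). ZNF724P had MAST4 (189.88), ZNF34 had PALM3 (94.98) and ZNF20 had POTEH (93.09, 126 bp, 17 copies). None of these 11 passed either limit of the pattern of its own KZFP, while 28.8% to 80.2% of the held-out peaks of these libraries passed the upper one. In libraries with 3, 2 or 1 peaks, a count of 0 allows up to 70.8%, 84.2% or 97.5%. At the upper limit, none of these libraries could thus be told apart from its held-out peaks.

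The exons themselves were compared with all eligible coding bases. The midpoint was coding in the Ensembl canonical transcript for 122 of 128 peaks (95.3%, 90.1 to 98.3), against 94.5% of eligible coding bases. In 5 cases, all ZNF251 (RAD9B, PGPEP1L, DIP2C, CCDC40 and ARHGAP25), it lay in an intron of that transcript, and POTEH has no canonical transcript. RAD9B was coding only in a transcript of a class other than protein coding. Among the 122 peaks coding in the canonical transcript, the last coding exon held 31 (25.4%, 18.0 to 34.1), beside 18.3% of eligible canonical coding bases, and exons over 1000 bp held 15 (12.3%, 7.05 to 19.5), beside 13.4%. With the coding sequence cut into 4 equal parts, the counts from start to end were 21, 30, 34 and 37, or 17.2%, 24.6%, 27.9% and 30.3%, beside 18.8%, 25.4%, 27.3% and 28.6% of the bases. Both intervals included the share of the bases. Most peaks were wider than their exon: the median width was 446 bp, the median exon 182 bp and the median coding part 48.0% of the peak, and 15 peaks were coding throughout.

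Coding exon peaks were then compared with the other peaks of their own library in the 5 libraries with at least 5 of them. The smallest two-sided p that the exact sign-flip test over 5 libraries can give is 0.0625. Median GC was higher in the coding exon peaks of ZKSCAN7 (53.9% against 40.2%), ZFP28 (44.9% against 35%) and ZNF251 (48.4% against 40.0%) and lower in those of ZNF578 (36.6% against 40.1%) and ZNF763 (62.9% against 65.0%). The mean difference was 5.27 percentage points (SD 7.64, n = 5, exact p = 0.25, adjusted p = 0.625). Eligible coding bases had 50.5% GC and the whole genome 40.9%. Within the gene, coding bases under the peak differed from the other coding bases by 1.73 percentage points of GC (SD 2.24, n = 5, exact p = 0.1875, adjusted p = 0.625), with ZNF763 highest at 4.81 and ZFP28 lowest at −1.14.

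**Figure D5:**
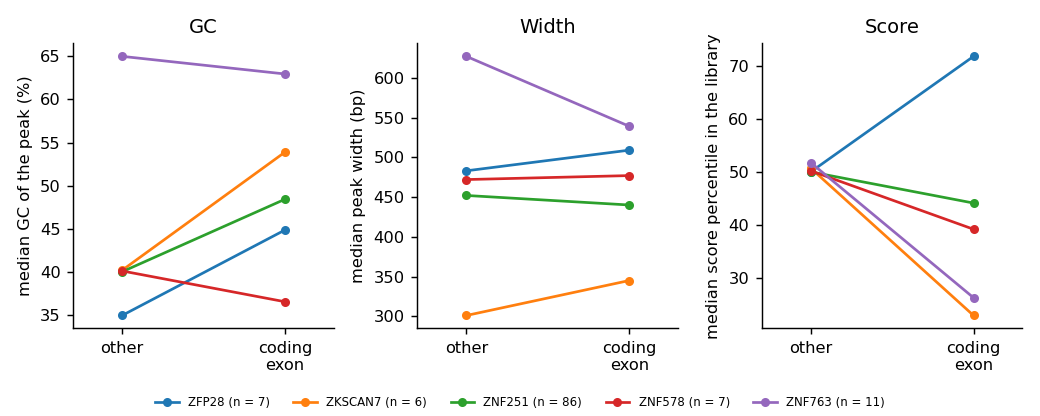
Median GC (percent), width (bp) and score percentile of the other peaks above 80 and of the coding exon peaks in each of the 5 libraries with at least 5 coding exon peaks; lines join values of the same library. GC is higher in 3 libraries and lower in 2, and the score percentile is higher in ZFP28 alone.

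Widths differed in both directions, from 539 against 627 bp in ZNF763 to 345 against 301 bp in ZKSCAN7, with a mean difference of −5 bp (SD 51.0, n = 5, exact p = 0.875, adjusted p = 0.984). Score percentiles within the library were lower in the coding exon peaks of 4 libraries (mean difference −9.66 points, SD 19.9, n = 5, exact p = 0.3125, adjusted p = 0.625). ZFP28 was the exception, with a median percentile of 71.8 against 50.0, while ZKSCAN7 had 23 against 50.7 and ZNF763 26.3 against 51.8. None of these differences was larger than the spread between libraries.

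Overlaps and copies of the coding exon peaks were counted. Of 128, 5 overlapped a peak above 80 of another KZFP, namely the 4 in VIM and the ZNF850 peak in ATP5MF, which overlapped a ZNF251 peak. Counting every deposited peak, 8 of 128 did. The same counts over all KZFP peaks were not made, so shares of the other peaks are given by library. In ZNF251, ZFP28 and ZNF578 the shared count was 0, which allows up to 4.20%, 41.0% and 41.0%. Of their other peaks, 0.943%, 3.30% and 9.56% were shared. ZKSCAN7 and ZNF763 had 33.3% and 18.2%, all from VIM, beside 11.5% and 9.39% of their other peaks. The mean difference was 3.37 percentage points (SD 12.3, n = 5, exact p = 0.75, adjusted p = 0.984), and without VIM it was −5.80 over 4 libraries (adjusted p = 0.746, exact test). No coding exon peak overlapped a deposited 293Tctrl peak. That list holds only 163 peaks and came from ChIP-seq, whereas all but 1 of the coding exon peaks came from ChIP-exo. Few KZFP peaks of any kind met it: leaving out those that did moved the median library share only from 0.410031% to 0.410051%. The absence of overlap is therefore little information on the coding exon peaks. No copy elsewhere in the genome was found for 102 of 128, and 7 had a copy of at least 95% identity (RPS9, EGLN1, POTEH, CYP2F1, NOMO1, CNTNAP3 and RASA4B), where mapped reads could be split. Copies were not sought for other peaks or for coding windows, so these copy counts have no share to set beside them.

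By gene family, coding exon peaks were spread thinly. Of 16402 genes with eligible coding bases, 125 (0.762%) had a coding exon peak, or 5.16 peaks per Mb of eligible coding sequence. Among the cadherins other than protocadherins, which join cells, 2 of 32 genes had one (FAT3 with ZNF251 and CELSR3 with ZNF763), and among the titin-like large genes 2 of 12 (TTN and NEB). Other C2H2 zinc finger genes had 1 of 125 (ZFHX4), homeobox genes 1 of 61 (HOXA3), mucins 1 of 16 (MUC17), olfactory receptors 1 of 129 (OR52A5), solute carriers 1 of 346 (SLC26A8) and the potassium, calcium and sodium channel genes with symbols that begin with KCN, CACN or SCN 1 of 128 (KCNJ2). None was found in 62 protocadherin, 44 collagen or 53 keratin genes, or in the 8 genes of KAP1 and its partners. Per Mb of eligible coding sequence, the rates were 13.9 for these cadherins, 6.54 for the titin-like genes, 6.73 for mucins and 8.63 for olfactory receptors. Homeobox genes had 20.0, other C2H2 zinc finger genes 4.57, the channel genes 4.01 and solute carriers 2.13, beside 5.16 over all genes. Each of these family rates rests on 1 or 2 peaks, and counts of 0 to 2 give no more than a description. Genes with a coding exon peak had a median of 1766 eligible coding bases, against 1057 over all genes. A gene with more coding bases offers more places for a midpoint, and no median weighted by bases was computed. The medians are therefore not like for like.

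At the limits of the rule, the lowest score taken was 80.04 in BNIPL and the highest left out 79.92 in SELP, both of ZNF251. The least distance taken was 2613 bp for the ZNF34 peak in PALM3, and the greatest left out was 2456 bp for a ZFP28 peak in TGIF1 with a score of 187.76.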

How the data were processed

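Reads had been aligned by the authors to hg19 (Bowtie2), and peaks called library by library (MACS) (the versions are 2.2.1 and 1.4 in the submitters' processing notes), ChIP-exo with all duplicates kept and an input sampled from all libraries as control, ChIP-seq against a total input. The deposited score of each peak is its −10 log10 p, from 50 upward. The lists give no read numbers, so the depth is unknown. 2 total input samples were not used here.

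Peaks above 80 were annotated with GENCODE release 44 on hg19 in Python 3.11.15 (NumPy 2.4.6, SciPy 1.17.1, pandas 2.3.3). The share of peaks was set against the share of assembled bases by the percentage-point difference, since a log ratio, which had been intended, has no value in libraries with a count of 0. Differences over libraries were tested with a two-sided sign-flip permutation test (exact, or 100000 resamples for 17 libraries), and adjusted over 6 tests by the Benjamini-Hochberg method. Copies were sought for the coding exon peaks only, with blastn 2.17.0 (E value below 1e-5). The 26-position pattern was grown from the 10-base word most enriched at the centre, over the flanks, of up to 500 peaks without coding bases. It is a choice made after seeing the data. The scripts were tested on simulated data. Alternatives were other score and distance limits, other rules for a coding peak and left-out libraries.

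The peaks, gene families and tests were chosen with earlier results of these data known. Named peaks were the 3 strongest per library (15 for ZNF251), the regions shared by most KZFPs, genes with 3 or more peaks and those nearest each limit; other genes, among them the remaining peaks of libraries with under 12, were named after their values were seen. A few of the peaks counted are not reported here by name or sequence.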

Additional observations from a re-analysis of the deposited data

How the results depend on the processing

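With all deposited peaks, 517 coding exon peaks in 487 genes were found, 19 of them with 2 or more KZFPs. The difference from the genome share was then 0.0529 percentage points and that in overlap with other KZFPs −1.41. GC differed from the other peaks by 2.79 percentage points (exact permutation test, n = 11, p = 0.0332, adjusted p = 0.0996). Within the gene, GC differed by 1.58 percentage points (exact permutation test, n = 11, p = 0.03125, adjusted p = 0.0996). Both GC differences had the same sign as in the main setting. Above a score of 100, the percentile difference was 4.68 and the overlap difference −1.81, over 2 libraries. Above 150, 59 peaks in 59 genes and 0 shared genes were left. The share then lay below that of the genome (difference −0.578 percentage points, adjusted p = 0.000488 over 12 libraries, exact permutation test, the sole test with a p at that score). All 12 libraries lay below, which gives the smallest p possible, and a short list with a count of 0 falls below the genome share by construction. There the overlap difference was −0.519 in 1 library. More than 1000 bp from a start, the share difference was 0.201 and 2 genes were shared. More than 5000 bp away, the overlap difference was −0.555. With the starts of all transcripts, 0 genes were shared and the overlap difference was −5.98. With at least 50% of the peak coding, 63 peaks in 63 genes and 0 shared genes were counted, with differences of 0.222 in share, 4.00 bp in width and −5.54 in overlap. With at least 1 bp coding, there were 352 peaks in 338 genes, 3 of them shared, a share difference of −1.32 (p = 0.0248, adjusted p = 0.149, permutation test) and a width difference of 13.1 bp. The share difference was 0.00892 with basic transcripts, 0.0491 with zinc finger genes kept and 0.0303 in ChIP-exo alone. Without ZNF251, 42 peaks in 39 genes were left and the share difference was 0.0182. Leaving out ZNF763 or VIM was added after seeing the data. Without ZNF763, 0 genes were shared and the width difference was 15.8 bp. Without VIM, 0 genes were shared and the differences were 7.75 bp in width and −5.80 in overlap. The share difference thus changed sign between settings, and the cause was not tested. No paired analysis was possible because there was 1 library per KZFP.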

Other observations

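With peaks at a score of 80 or below counted too, the ZNF763 list held 3 genes with more than 1 deposited coding exon peak. FN1 had 5 deposited coding exon peaks (scores 50.5 to 93.05, 1 of them above 80), VIM had 4 (61.43 to 140.75) and COL1A2, a fibrillar collagen gene, had 2 (50.02 and 79.26). FN1 encodes fibronectin and VIM vimentin. In the other libraries, VIM with 3 ZKSCAN7 peaks and CLCN1 with 2 ZNF251 peaks were the only genes with more than 1. Over all deposited peaks, coding exon peaks made up 4.20% of the ZNF763 list (146 of 3480) and 0.509% of the ZNF251 list (161 of 31655), and 19 genes had coding exon peaks from 2 KZFPs.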
